A study of Mus musculus with 25 samples.

Results

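The neural POU genes examined here are Pou3f1, Pou3f2 and Pou3f3 of POU class III and Pou4f1, Pou4f2 and Pou4f3 of class IV. They were taken by name from the RefSeq annotation of mouse build mm10, and all 6 were found among 20665 autosomal protein-coding gene records. For each gene the length under H3K27me3 peaks was measured over a window made of its record and 5 kb on each side, in 3 deposited peak lists. Both fibroblast lists, for line A and line B, came from mouse embryonic fibroblasts immortalized with c-myc and profiled by ChIP-seq. The other list came from neural progenitor cells (NPC) grown from embryonic stem cells. They were profiled by CUT&RUN, where a nuclease brought in by an antibody releases the marked chromatin for sequencing.

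The study followed H3K27me3 when Polycomb repressive complex 2 (PRC2) was removed and given back. The NPC were wild-type cells, either untreated, exposed to 2 uM UNC1999 plus 4 uM A395, which both inhibit PRC2, or taken after both were washed out. Each fibroblast line was profiled as wild type, as Ezh2 -/- (reversible in line B) and with Ezh2 restored, from the retroviral vector pMSCV-Ezh2 (line A) or from the endogenous locus (line B). Each state had 2 H3K27me3 libraries, and whether these were separate cultures is not stated. A further 7 libraries of line A, for input, RNA polymerase II, H3K4me3 and H3K36me3, were not used here. The peak lists hold positions without heights or counts, so the depth behind them is unknown. The name of each fibroblast list joins the wild-type and Ezh2 -/- libraries of its line and the NPC list names no treatment, so loss, inhibition and return of PRC2 could not be compared. With 1 list per cell system there was no replicate and no test between lists, and cell type and assay cannot be told apart between NPC and fibroblasts. A missing peak does not show that the mark was absent, and in bulk cells a mark on some cells and a weaker mark on all of them cannot be told apart.

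POU factors bind DNA through a bipartite domain, a POU-specific part and a homeodomain joined by a linker. Class III genes are known for expression in neural progenitors and in young neurons and glia, and class IV genes for expression in postmitotic sensory and projection neurons. PRC2 places H3K27me3 at developmental regulator genes in cells that do not use them, often as wide blocks over compact, CpG-rich genes.

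All 6 genes had most of their window under H3K27me3 peaks in both fibroblast lists. In the NPC list the 3 class III genes had lower shares than the 3 class IV genes. In the line A list between 68.9% and 100% of each window was under peaks, and in the line B list between 79.6% and 100%. The NPC shares were 0%, 0% and 25.9% for the class III windows and 43.8%, 89.5% and 93.3% for the class IV windows. These values did not overlap. NPC coverage as high as the 25.9% of Pou3f1 was found for 8.4% of all records, and as high as the 43.8% of Pou4f1 for 4.79%. With 3 genes per class, chosen with earlier results of these data known, this describes the 6 genes and was not tested for the classes. The class III gene Pou3f4, on the X chromosome, could not be measured. At least 50% of the window was covered for 6 of 6 genes in line A, where this held for 9.98% of all autosomal protein-coding records, for 6 of 6 in line B (9.71% of all records) and for 2 of 6 in NPC (3.91% of all records). Both fibroblast lists together reached it at all 6 genes and at 5.91% of all records. The whole window was covered for 1, 4 and 0 of the 6 genes in the 3 lists, against 0.736%, 1.20% and 0.474% of all records. The windows of the 6 genes are short, and among the 7343 records with windows of at most 20 kb the shares covered over at least 50% were 11.4%, 12.4% and 5.98% in the same order. Of these shorter windows, 1.81%, 2.82% and 1.02% were wholly covered, and 7.64% reached 50% in both fibroblast lists. A peak of any length stood in the window of 6, 6 and 4 of the genes, against 40.2%, 40.9% and 31.9% of all records. The median share covered was 79.3%, 100% and 34.8%, and over all records it was 0% in each list.

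**Figure D1:**
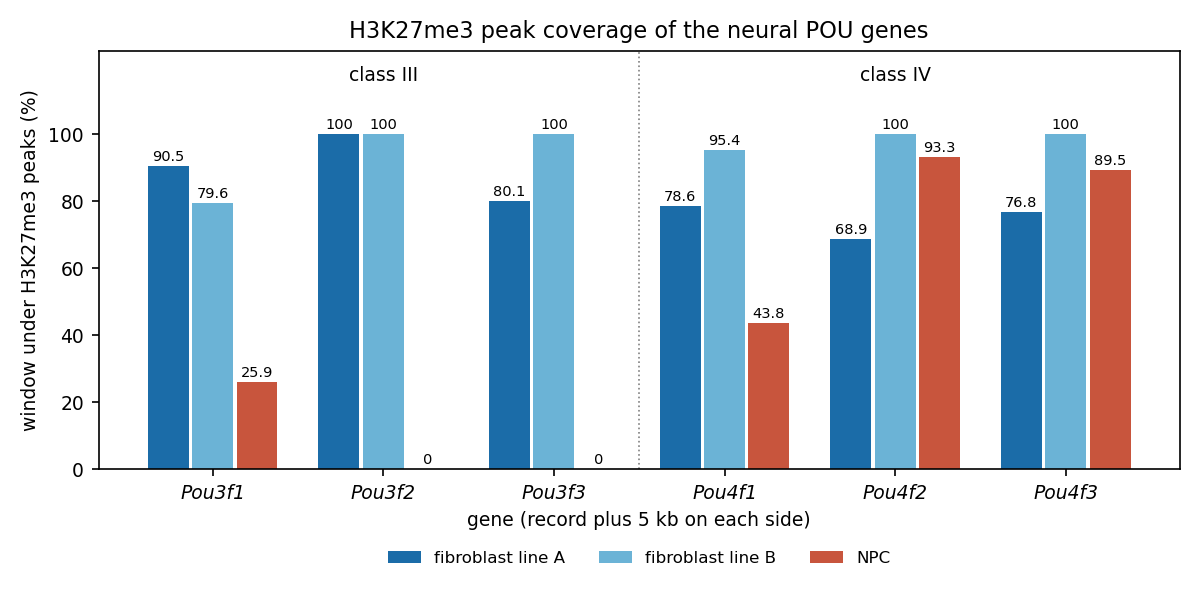
Share of each gene's window (record plus 5 kb on each side, in percent) that lies under H3K27me3 peaks, with 1 bar for each of the 3 peak lists. The fibroblast bars stand at 68.9% or above for every gene, and the NPC bars run from 0% at Pou3f2 and Pou3f3 to 93.3% at Pou4f2.

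The sequences before the annotated start sites were read next, whether or not a peak lay on them. The upstream bases are shown for the 4 genes matched in the RefSeq promoter table of build GRCm38.p6, in the direction of transcription and with each CG dinucleotide in capitals. They are 250 bases each for Pou3f2 (minus strand, chr4:22488367-22488616), Pou3f3 (plus strand, chr1:42695518-42695767) and Pou4f2 (minus strand, chr8:78436648-78436897). For Pou4f1 (minus strand, chr14:104468119-104468249) the 131 bases that lie outside the gene record are given.
Pou3f2: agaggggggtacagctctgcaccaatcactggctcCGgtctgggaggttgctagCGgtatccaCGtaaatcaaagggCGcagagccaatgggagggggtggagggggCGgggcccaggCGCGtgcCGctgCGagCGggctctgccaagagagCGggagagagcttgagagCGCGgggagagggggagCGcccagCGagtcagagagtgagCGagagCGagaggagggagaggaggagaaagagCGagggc
Pou3f3: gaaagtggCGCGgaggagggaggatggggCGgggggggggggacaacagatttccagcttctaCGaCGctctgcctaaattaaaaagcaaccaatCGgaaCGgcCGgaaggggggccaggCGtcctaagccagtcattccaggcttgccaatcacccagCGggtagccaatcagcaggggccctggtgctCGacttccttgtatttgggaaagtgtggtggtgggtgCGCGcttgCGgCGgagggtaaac
Pou4f1: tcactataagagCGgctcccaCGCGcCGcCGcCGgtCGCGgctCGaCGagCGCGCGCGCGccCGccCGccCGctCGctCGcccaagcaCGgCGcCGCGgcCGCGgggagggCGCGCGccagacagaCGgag
Pou4f2: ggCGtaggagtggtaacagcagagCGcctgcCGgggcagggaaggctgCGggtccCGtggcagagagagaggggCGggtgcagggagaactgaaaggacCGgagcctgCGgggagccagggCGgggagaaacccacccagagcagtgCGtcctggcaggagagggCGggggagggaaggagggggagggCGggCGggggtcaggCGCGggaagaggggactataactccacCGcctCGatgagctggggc
The sequences of Pou3f2 and Pou3f3 were wholly under peaks in both fibroblast lists and free of peaks in NPC, while that of Pou4f2 was wholly under peaks in all 3 lists. Of the 131 Pou4f1 bases, 0 were under a peak in line A, all in line B and 84 in NPC.

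Over the 250 bases before the start, CG occurred 18 times at Pou3f2, 15 times at Pou3f3, 17 times at Pou4f2 and 47 times at Pou4f1, against a median of 10 over 20063 autosomal promoters of protein-coding genes. As many CG as at Pou4f1 were held by 0.334% of those promoters, and as many as at Pou3f2 by 30%, so the other 3 lay above the middle of the range without being extreme. The letters CCAAT, read on both strands, occurred 2 times at Pou3f2, 3 times at Pou3f3 and in neither class IV sequence, and 35.3% of the promoters held them at least once. The octamer ATGCAAAT, known as a binding site of POU factors, was not found on either strand of these 4 windows and was present in 1.59% of the promoters. Neither motif holds a CG.

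Pou3f2 and Pou3f3 showed the widest contrast between cell systems. Pou3f2 (also called Brn2; NCBI gene 18992, chromosome 4, 22482095 to 22488366) acts in cortical neurogenesis and hypothalamic neuroendocrine neurons, and is used in converting fibroblasts to neurons. Its window of 16.3 kb was covered over 16.3 kb in line A, 16.3 kb in line B and 0.0 kb in NPC. In each fibroblast list a single peak did this, 33.9 kb wide in line A and 35.8 kb wide in line B, a width that 0.489% and 0.527% of the peaks of those lists reached. A whole window in both fibroblast lists with 0 bp in NPC was found for 26 records (0.126% of all), Pou3f2 among them, or 0.327% of the records whose windows were at most 20 kb long.

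The NPC list had no peak near Pou3f2 over a long distance. The nearest NPC peak stood 480.2 kb above the gene in map order, and on the other side the nearest was 765.5 kb away. Of all records, 4.69% lay as far from an NPC peak, and the median distance was 25.7 kb. Both values include some records with doubtful positions, described with the processing. Within 500 kb on each side NPC peaks covered 0.232% of the sequence, line A peaks 31.1% and line B peaks 18.3%. On chromosome 4 as a whole, 22.5% of records had an NPC peak in their window.

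Pou3f3 (Brn1; gene 18993, chromosome 1, 42695768 to 42700210) acts with Pou3f2 in upper-layer cortical neurons and in kidney tubule formation. Of its 14.4 kb window, 11.6 kb were covered in line A, 14.4 kb in line B and 0.0 kb in NPC. The flanks were covered over 100% in both fibroblast lists, and the difference between the lines lay inside the gene, where line A had 35.3% of the record under peaks and line B 100%. The nearest NPC peak stood 135.2 kb away, a distance that 20.4% of all records reached. At least 50% of the window in both fibroblast lists with 0 bp in NPC was found for 1.35% of all records, and for Pou3f2 and Pou3f3 among the 6 genes. Among records with windows of at most 20 kb the share was 2.07%.

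Pou3f1 (Oct6; gene 18991, chromosome 4, 124657646 to 124660655), a regulator of Schwann cell myelination, had a partly covered window in each list. Of 13.0 kb, 11.8 kb were covered in line A, 10.4 kb in line B and 3.4 kb in NPC. The NPC value came from 1 peak of 3.4 kb that ended 0.9 kb below the record, so that 0% of the record was covered in NPC against 75% in line A and 100% in line B. All of this NPC peak lay under a line A peak, and 68.2% of it under a line B peak. In NPC the records of all 3 class III genes were thus free of peaks.

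**Figure D2:**
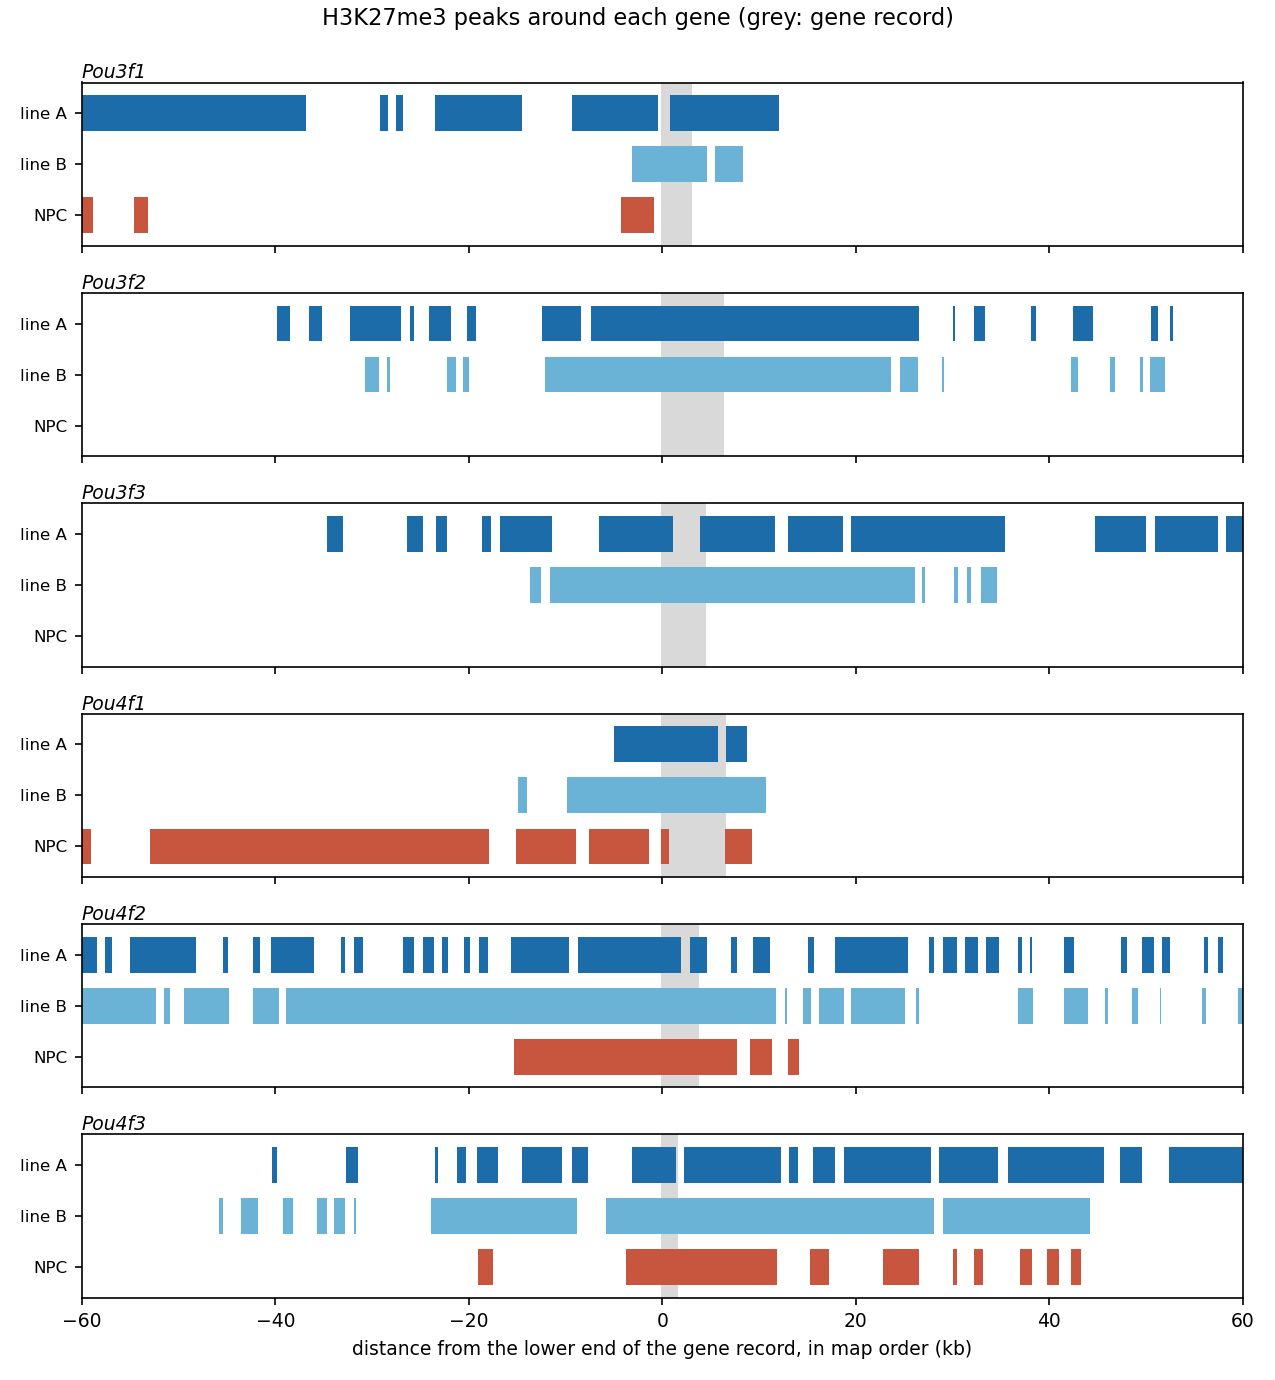
Positions of H3K27me3 peaks (bars) around each gene in the 3 lists, as the distance in kb from the lower end of the gene record in map order, with the record in grey. The NPC rows of Pou3f2 and Pou3f3 are empty, the line B row has 1 unbroken bar over every record, and the joined NPC region at Pou4f1 reaches 53.0 kb below the record.

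The class IV genes were covered in all 3 lists. Pou4f2 (Brn3b; gene 18997, chromosome 8, 78433009 to 78436647), required for retinal ganglion cells, had 9.4 kb of its 13.6 kb window covered in line A, 13.6 kb in line B and 12.7 kb in NPC. Its line B peak of 50.6 kb was the widest at any of the 6 genes, and 0.226% of line B peaks were as wide. The NPC peak over it was 23.0 kb wide, a width reached by 1.25% of NPC peaks. By coverage of its window, Pou4f2 stood among the first 136 of 20665 records in NPC (0.658%).

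Pou4f3 (Brn3c; gene 18998, chromosome 18, 42394597 to 42396093), required for inner ear hair cells, had 8.8 of 11.5 kb covered in line A, 11.5 kb in line B and 10.3 kb in NPC. NPC coverage as high was found for 169 records (0.818%). At least 50% in all 3 lists was found for 288 records (1.39%), and among the 6 genes for Pou4f2 and Pou4f3. For windows of at most 20 kb the share was 2.30%. In both windows every base under an NPC peak was also under a line B peak, and line A covered 73.5% of the NPC length at Pou4f2 and 85.8% at Pou4f3.

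Pou4f1 (Brn3a; gene 18996, chromosome 14, 104461675 to 104468118), a regulator of sensory and habenular neurons, stood between the other class IV genes and class III in NPC. Of its 16.4 kb window, 12.9 kb were covered in line A, 15.7 kb in line B and 7.2 kb in NPC. The NPC length came from 3 peaks, mostly in the flanks, covering 75.4% of the lower and 55.4% of the upper flank but 10.3% of the record. The annotated start site, at 104467999, lay between peaks in NPC (uncovered from 104462338 to 104468165) and in line A (uncovered from 104467459 to 104468264), and under the line B peak. Over the 300 bases around that start, line A had 0, line B 300 and NPC 84 bases under a peak. Of all autosomal promoters, 13.3% in line A and 9.98% in NPC had at least 1 such base under a peak, and 13% in line B had all 300.

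Peaks over the gene bodies were broken in line A and whole in line B. In line B the full record was covered at 6 of 6 genes, where 2.94% of all records were covered in full. In line A this held for Pou3f2 alone, against 2.44% of all records, and in NPC for Pou4f2 and Pou4f3, against 1.61%. The uncovered stretches that touched the other 5 records in line A were 774 bp at Pou4f3, 806 bp at Pou4f1, 914 bp at Pou4f2, 1240 bp at Pou3f1 and 2873 bp at Pou3f3. The smallest gap between any neighbouring peaks of the line A list was 773 bp, so 3 of the 5 stretches were near the shortest that the list holds. In the line B list the smallest gap was 709 bp and in the NPC list 1145 bp. Breaks as short as those of line A at Pou4f1, Pou4f2 and Pou4f3 thus do not occur in the NPC list. Whole records in NPC and broken ones in line A are therefore not directly comparable. Among the 438 records that were covered in full in line B and over at least 50% of the window in line A, 37.4% were broken in line A. Whether depth or peak calling differed between the lines was not tested.

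Beyond the gene, the covered regions differed in reach. With peaks less than 3 kb apart joined, the regions over the class III genes measured 21.4 kb (Pou3f1), 38.9 kb (Pou3f2) and 41.9 kb (Pou3f3) in line A and 11.5, 41.3 and 48.4 kb in line B. Those over the class IV genes measured 13.7 kb (Pou4f1), 38.0 kb (Pou4f2) and 75.2 kb (Pou4f3) in line A and 20.6, 104.8 and 68.1 kb in line B. In NPC they measured 53.7, 29.5 and 15.6 kb at Pou4f1, Pou4f2 and Pou4f3. The classes overlapped in length in both fibroblast lists, and Pou3f1 and Pou4f1 had the shortest regions in both at this joining distance.

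At this joining distance the NPC region was the longest of the 3 lists at Pou4f1 and the shortest at Pou4f2 and Pou4f3. The order depended on the joining. The smallest gap between NPC peaks was 1145 bp, so a limit of 1 kb joined peaks in the fibroblast lists but none in NPC. With gaps under 1 kb joined, the NPC region was the shortest at Pou4f1 (0.8 kb) and longer than that of line A at Pou4f2 (23.0 against 20.3 kb), and with no joining it was also longer than that of line A at Pou4f3 (15.6 against 4.5 kb). At Pou4f1 the region joined at 3 kb extended 53.0 kb below the record, against 5.0 kb for line A and 9.9 kb for line B. This region joins 4 peaks, and the peak that touches the record is 0.8 kb wide. Within 50 kb of the gene 36.4 kb lay under NPC peaks alone, while 12.9 kb lay under line A and 21.4 kb under line B peaks. At Pou4f2 and Pou4f3 the same count of NPC-specific sequence was 1.2 kb and 0.0 kb, and the length shared by both fibroblast lines but not by NPC was 20.8 and 23.3 kb.

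**Figure D3:**
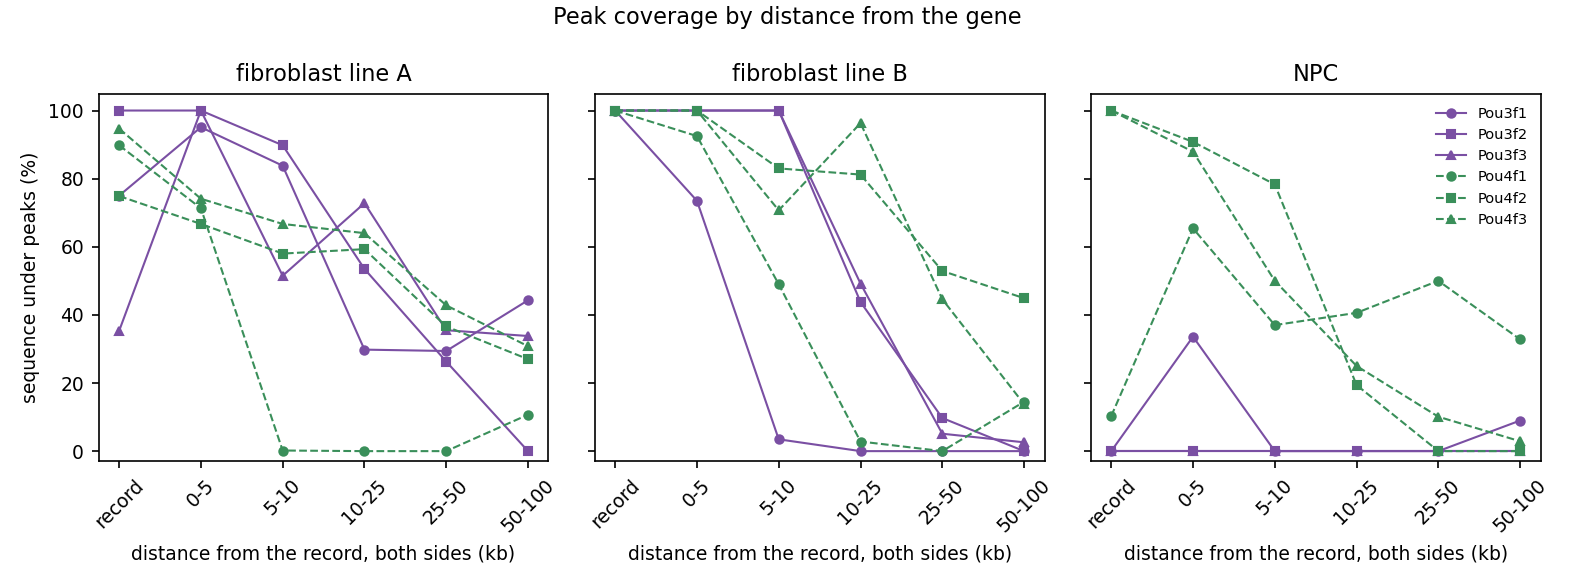
Percent of sequence under peaks over the record and in bins of distance from it (both sides together), 1 line per gene and 1 panel per list, with class III solid and class IV dashed. The NPC lines of Pou3f2 and Pou3f3 lie on 0 from the record to 100 kb, whereas the NPC line of Pou4f1 stands at 50% between 25 and 50 kb.

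Coverage at a distance differed between genes and lists. In line B, coverage from 25 to 50 kb was 0% at Pou3f1 and Pou4f1, 9.72% at Pou3f2 and 5.11% at Pou3f3, but 52.9% at Pou4f2 and 44.6% at Pou4f3. From 50 to 100 kb it was 44.9% at Pou4f2 and 13.8% at Pou4f3. In line A, coverage from 25 to 50 kb was 0% at Pou4f1 and between 26.3% and 42.8% at the other 5 genes. From 5 to 10 kb, line B covered 3.47% at Pou3f1 and line A 83.8%. The nearest protein-coding record on each side of the 6 genes had between 0% and 6.56% of its window covered in every list, with the exception of Ttc29, a gene of the sperm flagellum that ends 38.7 kb below Pou4f2. Line A peaks covered 67.3% of its window, line B peaks 81.5% and NPC peaks 2.84%. Utp11, a ribosome biogenesis gene 17.6 kb above Pou3f1, and Fbxl4, a mitochondrial gene 48.0 kb below Pou3f2, had 0% in each list.

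Fewer of the other POU genes were covered. Of 8 other POU genes taken, Pou3f4 lies on the X chromosome, on which the lists hold no peak, and was not analysed here. At least 50% of the window was covered for 1 of the 7 autosomal ones in each fibroblast list. This is near the share of all records, 9.98% in line A and 9.71% in line B. The highest NPC value was 40.7%. The gene covered over at least 50% was Pou2f3, a factor of tuft cells and epidermis, with 64%, 63.4% and 24.4% in line A, line B and NPC. Pou2f2 of B cells had 48.9%, 29.8% and 40.7%. Pou5f1, the pluripotency factor Oct4, had 27.1%, 24.4% and 0%. Pou2f1, a broadly expressed factor, and Pou5f2 and Pou6f1 had 0% in each list. Several of these windows are far longer than those of the 6 genes (up to 147.6 kb at Pou2f1, against 11.5 to 16.4 kb). The windows of Pou5f1 (14.7 kb) and Pou5f2 (11.4 kb) are short, and that of Pou2f3 measures 91.8 kb. Whether window length bears on these shares was not tested.

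Partners and upstream factors of the POU genes ranged from uncovered to wholly covered. At least 50% of the window was covered for 4, 6 and 4 of the 10 in line A, line B and NPC, against 9.98%, 9.71% and 3.91% of all records. The proneural factors Neurog1 and Neurog2 and the motor and sensory neuron factor Isl1 had at least 94.1% in every list. Myt1l, a zinc finger factor of neurons, had 21.6%, 15.4% and 3.51% of a 405.6 kb window. Sox2, a progenitor factor that binds with class III proteins, had 0%, 100% and 0%. Atoh7, which acts upstream of Pou4f2 in the retina, had 0%, 49.5% and 0%, and Atoh1, upstream of Pou4f3 in hair cells, 0%, 65.2% and 85.2%.

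Known target genes had a peak in the window in 12, 11 and 5 of 12 cases, against 40.2%, 40.9% and 31.9% of all records. The 5 of 12 in NPC lay near the share of all records. At least 50% of the window was covered in 4, 5 and 2 cases, against 9.98%, 9.71% and 3.91% of all records. Gfi1, a hair cell target of Pou4f3, was covered over 100% in both fibroblast lists and 0% in NPC. Among class III targets, the progenitor filament gene Nes had 16.6%, 70.5% and 0%, and the Notch ligand gene Dll1 82%, 47.1% and 0%. Crh, the corticotropin-releasing hormone gene of hypothalamic neurons, had 9.8%, 86.5% and 84.3%.

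**Figure D4:**
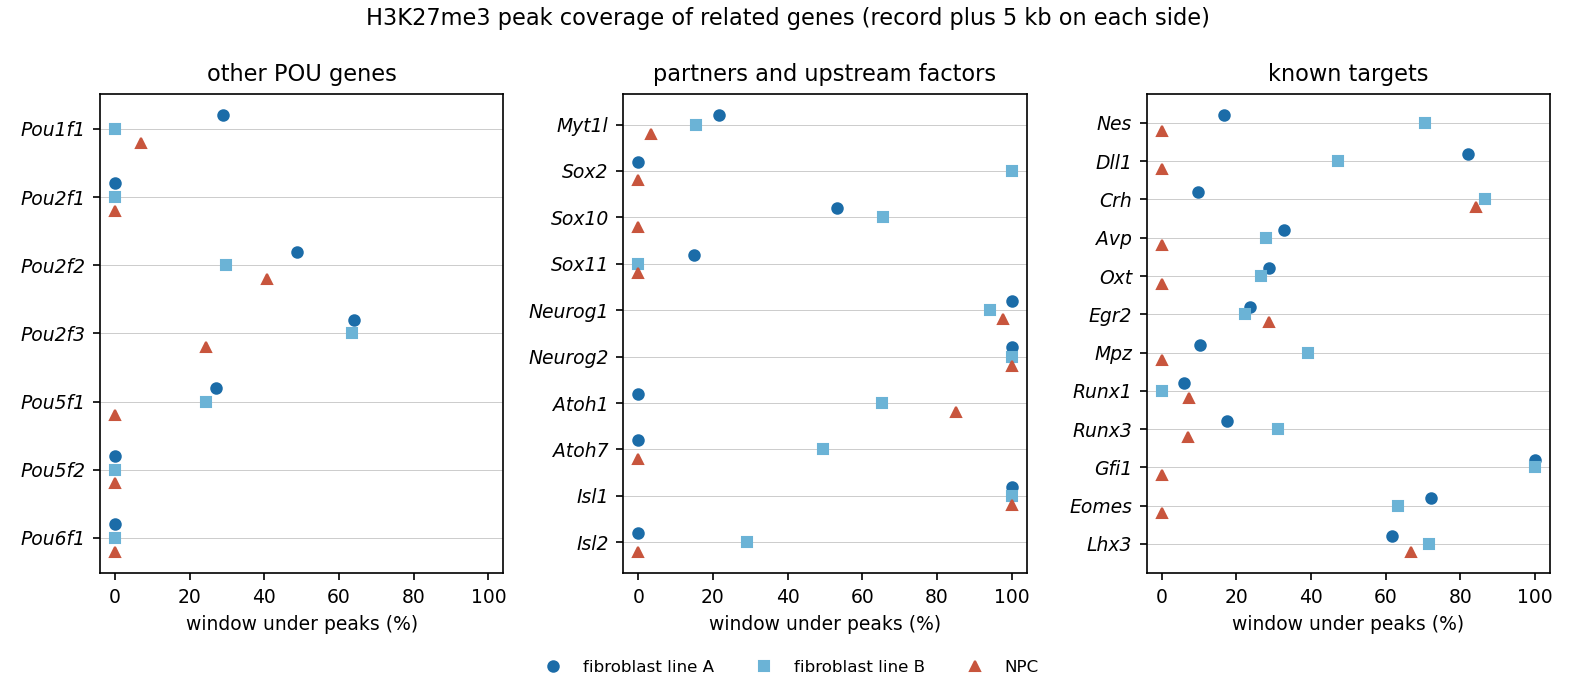
Percent of the window (record plus 5 kb on each side) under H3K27me3 peaks for 7 other autosomal POU genes, 10 partners and upstream factors and 12 known targets, with 1 point per list. Isl1 and Neurog2 stand at 100% in all 3 lists, while the highest value among the other POU genes is 64% at Pou2f3.

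Markers of the labelled cell types were measured in the same way. In the NPC list the progenitor markers Nes, Sox1, Sox2, Pax6 and Fabp7 had 0% of their windows covered, Hes5 15.9% and Msi1 8.49%. A peak in 2 of 7 windows is near the 31.9% of all records with an NPC peak. At least 50% was covered for 4 of these 7 in line A (9.98% of all records) and 5 in line B (9.71% of all records). Of 9 fibroblast markers, Col1a1 had 3.33% covered in line A and the others 0% in both fibroblast lists. In NPC, Pdgfrb had 57.9% covered, Fn1 0.905% and the others 0%. A peak thus stood in 1, 0 and 2 of these 9 windows in line A, line B and NPC. The shares of all records were 40.2%, 40.9% and 31.9%, so the NPC count is near that of all records. The lists hold no expression values. Of the neuron markers, Rbfox3 had 64.8%, 56.3% and 7.56% in line A, line B and NPC. In the same order Tubb3 had 8.33%, 0% and 0%, and Map2 1.65%, 0% and 0%. Dcx, on the X chromosome, was not analysed here.

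By the 3 shares of covered window, the records most like each gene were found as those with the smallest mean absolute difference over the lists. For Pou3f2, 25 other records had the same 100%, 100% and 0%. Closest to Pou3f3 was Sox21, at a mean difference of 0.021 percentage points (80.2%, 100% and 0% in line A, line B and NPC), and closest to Pou4f3 was Neurog3, at 0.467 points (77.4%, 100% and 90.3%). Mcpt4 was closest to Pou3f1 (0.76 points), Pnma2 to Pou4f1 (0.942) and Cryba2 to Pou4f2 (2.66). With 20665 records and 3 lists, near matches are plentiful, and these names describe likeness in covered length alone.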

How the data were processed

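H3K27me3 peak positions were read from 3 peak lists deposited by the authors, each with a chromosome, a start and an end and no header, score or p-value. The 25 libraries fall into 13 groups by their titles and source names, but each list is deposited for the series as a whole. MACS2 2.1.1.20160309, deepTools, DESeq2, Picard and Bowtie2 2.2.9, with builds dm6 and mm10, are named without role per the submitters' processing notes. Peak thresholds, controls and the libraries behind a list: not given in the sources used here. The lists held 86235 (line A), 81972 (line B) and 44807 (NPC) peaks over 276.2, 235.7 and 136.9 Mb.

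Starts were read as 0-based and are printed 1-based. Gene records came from a RefSeq table of GRCm38.p6, the assembly of mm10, without strand, exons or transcripts. Strand and start sites came from the RefSeq promoter table. Exons, introns and UTRs were not told apart. Windows (record plus 5 kb), joined regions (gaps under 3 kb) and background shares were computed with Python 3.11.15, NumPy 2.4.6 and pandas 2.3.3, and the interval code was tested on simulated data. No test was run, since each cell system had 1 list. Alternatives were other windows, list filters and joining distances. The members and gene lists were chosen with earlier results of these data known. The genes named were the 6 members, the other POU genes, the listed partners, targets and markers, the nearest coding neighbours and the record most alike. Some genes of these lists are not reported here. The share of records covered in full, the distance to the nearest peak, the records with short windows, the lncRNAs and the promoter letters were added after the values were seen.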

Additional observations from a re-analysis of the deposited data

How the results depend on the processing

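The number of genes with a peak in the window, and their number at 50% coverage, stayed within 1.5 times under the record alone, flanks of 2 or 10 kb, peaks of at least 1 kb, or the 44807 widest peaks of each list. With 80% of the window required, 3 genes passed in line A. The number of wholly covered genes depended on the window. With 10 kb flanks it was 0 in line A and 2 in line B, against 1 and 4 with 5 kb. In NPC it was 2 over the record alone and with 2 kb flanks, against 0 with 5 kb. The fewer genes at 10 kb and the more at 2 kb follow from the length that has to be covered. In NPC the highest class III share lay below the lowest class IV share under each of these settings (0% and 10.3% over the record alone, 25.9% and 39.1% with peaks of at least 1 kb). The settings were varied 1 at a time. The 10.3%, at Pou4f1, came from 1 peak of 781 bp, which the 1 kb filter would remove, so the order over the record alone rests on that peak. Lengths of joined regions depended on the joining distance. At Pou4f2 they were 343.0 kb in line A and 273.2 kb in line B with gaps under 5 kb, against 38.0 and 104.8 kb with gaps under 3 kb. With gaps under 1 kb the line A regions were 7.6 kb at Pou3f3 and 17.1 kb at Pou4f3 and the NPC region at Pou4f1 was 0.8 kb, against 41.9, 75.2 and 53.7 kb, so that at Pou4f1 NPC went from the longest to the shortest of the 3. At Pou4f2 line A then had 20.3 kb and NPC 23.0 kb, against 38.0 and 29.5 kb, which also reversed their order. No gap in the NPC list is under 1145 bp, so for NPC a limit of 1 kb is the same as no joining. These changes of order were thus set in part by the shortest gap that each list holds. No paired analysis was possible because the lists give no values per library. Depth could not be assessed.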

Other observations

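The 10 lncRNA records within 25 kb of the POU genes were looked at after the values were known. Shares are of the length of the lncRNA record. At Pou3f1, Gm2164 (0.2 kb below) had 71.9% in line A, against 2.25% for line B and 9.17% for NPC, and Gm38545 (3.6 kb above) had 100%, 43.8% and 0%. Around Pou3f3, the records Pantr1 (0.9 kb below), Pantr2 (6.8 kb above) and 2900092D14Rik (0.1 kb above) had 34.6%, 78.9% and 100% of their length under line A peaks and 25.5%, 100% and 100% under line B peaks, and each had 0% in NPC. Gm46091, which overlaps Pou3f3, had 68.4%, 66.6% and 0%. Gm30731, which lies 2.2 kb above Pou3f2, was covered over 100% in both fibroblast lists and 0% in NPC. Gm30731 and 2900092D14Rik lie wholly inside the windows of Pou3f2 and Pou3f3, so their values repeat those given above for these windows. Several of the other lncRNA records overlap a window in part. Gm31438, 2.3 kb above Pou4f3, had 85.6%, 97.4% and 46.4% covered in line A, line B and NPC. Below Pou4f1 the NPC share was the highest of the 3, with D130079A08Rik at 1.57%, 4.92% and 35% in that order and Gm35362 at 0%, 52.5% and 85%.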
